A study of Homo sapiens with 6 samples.

Results

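HOX genes and the antisense RNAs of their clusters were compared between lenvatinib-sensitive and lenvatinib-resistant liver cancer cells. Members were the symbols of the deposited expression tables that start with HOXA, HOXB, HOXC or HOXD followed by a number or by -AS. The rule found 50 of 24432 symbols: 37 coding genes, 12 antisense RNAs and 1 readthrough transcript, HOXA10-HOXA9. The HOXA cluster held 16 members, HOXB 12, HOXC 12 and HOXD 10. HOXB1 and HOXC11 were not analysed here. The series consists of 6 RNA-seq libraries of cells labelled PLC/PRF/5, an established cell line from a human hepatocellular carcinoma. The 3 sensitive libraries carry the genotype label WT and the treatment label control. The 3 resistant libraries carry the genotype label Lenvatinib resistant and the treatment label Lenvatinib, an inhibitor of VEGF and FGF receptor kinases used against liver cancer. All cells grew in DMEM with fetal bovine serum. Resistant cells were selected from a start of 20 µmol/L lenvatinib in steps of 0.5 mmol/L to 40 mmol/L according to the labels, whose units for start and steps do not match. The labels do not say whether the resistant cells were a clone or a pool, whether lenvatinib was present at harvest, or whether replicates were separate cultures. The p-values therefore measure the spread between these libraries, which may be technical. That the resistant libraries are PLC/PRF/5 rests on their labels and was not tested, so selection for resistance, drug exposure and a difference in cell identity cannot be told apart in any comparison of the groups.

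HOX genes encode homeodomain transcription factors that tell cells where they lie along the body axis. They sit in clusters on separate chromosomes, and genes with the same number in different clusters are paralogs. Low-numbered genes act nearer the head and high-numbered genes nearer the tail, and adult cells and the lines derived from them often keep a HOX pattern that reflects their region of origin. Polycomb proteins hold HOX genes silent, Trithorax proteins keep them active, retinoic acid can switch on low-numbered genes, and PBX, MEIS and PKNOX proteins bind DNA together with HOX proteins. Antisense RNAs are transcribed from the other strand between or across the coding genes. In the sums given later, genes numbered 1 to 3 are called anterior, 4 to 8 central and 9 to 13 posterior.

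Levels are in FPKM, reads or fragments scaled to transcript length and to the size of the library, so that levels of different genes can be compared. The FPKM of all symbols summed to between 410492 and 475088 in sensitive libraries and between 366048 and 377923 in resistant libraries. Total counts are not known. Sensitive replicate 3 stood apart: across genes its log2(FPKM + 1) correlated with the other sensitive libraries at r = 0.95 and 0.96, against 0.99 between those libraries and 0.99 to 1.00 among the resistant ones. Correlations between groups were 0.68 to 0.71. The label of a liver cell was checked against 13 hepatocyte markers, of which 12 were tested and 12 were lower in resistant libraries. Their summed level was 4092 to 4431 FPKM in sensitive libraries and 16.6, 43.8 and 17.3 FPKM in resistant replicates 1, 2 and 3. Of these markers 7 were under 1 FPKM in every resistant library. TTR, listed at 0 in resistant libraries, was also under 1 FPKM in sensitive libraries, at 0.409, 0.850 and 0.377 FPKM. The highest marker in resistant libraries was SERPINA1, at 8.66 to 20.9 FPKM against 2089 to 2401 FPKM in sensitive libraries. The resistant libraries thus had much lower hepatocyte markers than the label of the line describes, and whether they derive from the same line was not tested. In these bulk libraries fewer cells of a type and less RNA per cell cannot be told apart.

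The libraries labelled resistant had another HOX pattern than the sensitive ones: HOXB genes and part of the HOXD cluster were higher, most HOXA and HOXC genes were lower, and the sum over all coding HOX genes overlapped between the groups. Of the 50 members 30 reached 1 FPKM in at least 3 of the 6 libraries and were tested in a limma fit across all genes. In that fit 11 members were higher in resistant libraries, 14 were lower and 5 did not pass (Benjamini-Hochberg adjusted p over all genes tested, threshold 0.05). Changes were widespread in this comparison: 67.7% of the 11694 genes tested passed, 35.2% higher and 32.5% lower. Of the 30 tested members 16 reached the filter through a single group, against 15.4% of all genes tested, so those members had to differ and the count of calls is a description only. They were HOXA3, HOXA4, HOXA6, HOXA7, HOXA13, HOXA-AS2, HOXA10-AS, HOXB2, HOXB3, HOXB6, HOXB-AS1, HOXC6, HOXC12, HOXC13-AS, HOXD10 and HOXD11. The adjusted p-values given below for these members are likewise descriptions only. With no filter all 50 members could be fitted, and 17 were higher, 19 lower and 14 did not pass, against 44.6% of 22521 genes called, 22.9% higher and 21.7% lower. The groups did not overlap for 42 members, 21 with higher and 21 with lower values in all resistant libraries, against 56.2% of these genes without overlap, 28.9% higher and 27.2% lower. A difference of at least 2-fold on the log2(FPKM + 1) scale was called for 23 of the 30 tested members and for 38.2% of all genes tested. The median log2 difference was -0.32 over the tested members and 0.08 over all genes tested, and the median absolute difference was 1.87 and 0.75. The members that reached the filter through a single group enter the 2-fold count and these medians too, so both are descriptions only.

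Directions differed by cluster. The counts by cluster and position are descriptions only. Over all genes tested 35.2% were higher and 32.5% lower, and with no filter 22.9% and 21.7%. In HOXA 7 tested members reached the filter through a single group, in HOXB 4, in HOXC 3 and in HOXD 2. Those members had to differ. Among tested HOXA members 2 were higher and 8 lower, among HOXB members 6 were higher and 1 did not pass, among HOXC members 6 were lower and 1 did not pass, and among HOXD members 3 were higher and 3 did not pass. Without the filter the counts were 3 higher and 10 lower of 16 in HOXA, 9 higher and 1 lower of 12 in HOXB, 0 higher and 7 lower of 12 in HOXC, and 5 higher and 1 lower of 10 in HOXD. Each position along the clusters held genes of both directions: 4 of 7 anterior genes were higher and 2 lower, 6 of 15 central genes were higher and 5 lower, and 4 of 15 posterior genes were higher and 7 lower in the fit with no filter.

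**Figure D1:**
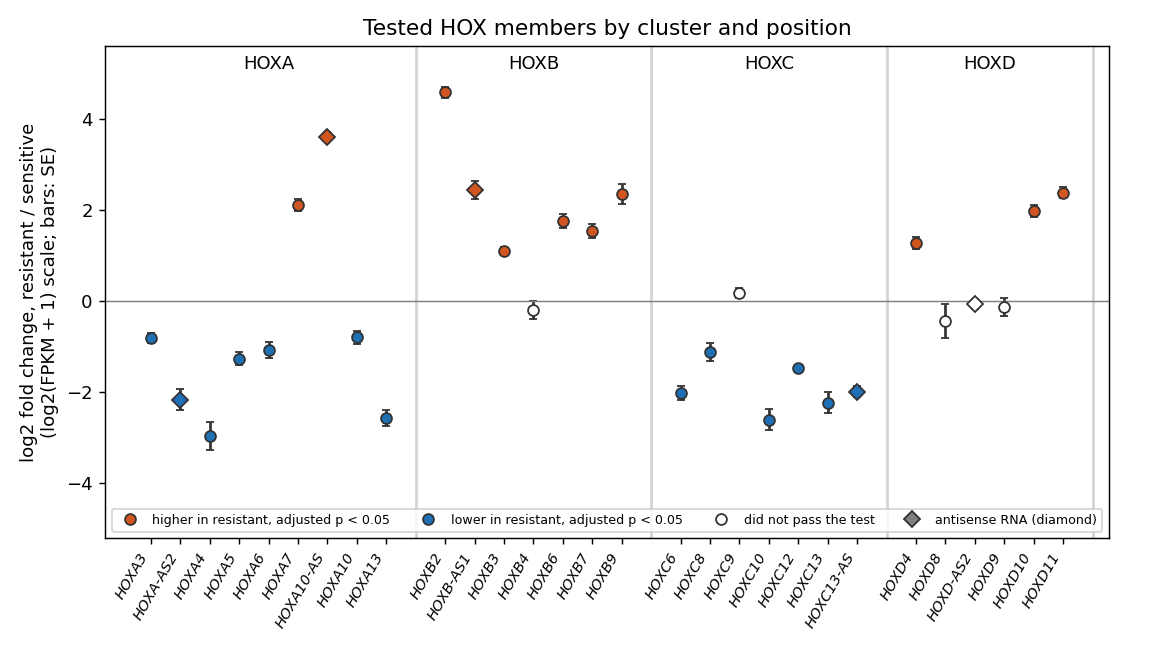
Log2 difference (resistant over sensitive, on the log2(FPKM + 1) scale) of tested HOX members, in cluster order; bars are standard errors, filled points passed the test, open points did not, and diamonds are antisense RNAs. All 7 HOXB points except HOXB4 lie above 0, all HOXC points except HOXC9 lie below it, and HOXA7 and HOXA10-AS are the HOXA points above 0.

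The HOXA and HOXD clusters held genes of both directions. The promoters of a pair from each cluster are printed here so that these genes can be seen side by side: HOXA7 (higher in resistant libraries) and HOXA13 (lower), and HOXD11 (higher) and HOXD13 (lower, below the filter). HOXD11 was taken as the HOXD member with the highest level in resistant libraries, and the other genes were chosen after their values were seen. Each choice thus rests on these values. Sequences are the RefSeq windows on GRCh38.p14, from 250 bases before to 50 bases after the annotated start, 5′ to 3′ on the gene's strand: HOXA7 at chr7:27156626-27156925 and HOXA13 at chr7:27200042-27200341 on the minus strand, HOXD11 at chr2:176107030-176107329 and HOXD13 at chr2:176092471-176092770 on the plus strand. Capitals mark matches on either strand to 4 motifs: TGATNNAT (HOX with PBX), TAATTA (homeodomain), CCAAT and TATAAA.
HOXA7: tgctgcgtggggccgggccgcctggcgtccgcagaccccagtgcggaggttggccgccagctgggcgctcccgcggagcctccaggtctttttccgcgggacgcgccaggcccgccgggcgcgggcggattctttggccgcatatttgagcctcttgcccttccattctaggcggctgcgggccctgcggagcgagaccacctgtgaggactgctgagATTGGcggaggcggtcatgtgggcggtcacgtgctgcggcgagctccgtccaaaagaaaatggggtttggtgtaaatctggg
HOXA13: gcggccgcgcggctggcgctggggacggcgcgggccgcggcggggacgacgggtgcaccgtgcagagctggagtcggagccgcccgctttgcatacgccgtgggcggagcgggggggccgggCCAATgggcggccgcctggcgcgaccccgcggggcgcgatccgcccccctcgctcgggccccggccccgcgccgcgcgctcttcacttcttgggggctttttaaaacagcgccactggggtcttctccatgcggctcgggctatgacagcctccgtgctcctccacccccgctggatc
HOXD11: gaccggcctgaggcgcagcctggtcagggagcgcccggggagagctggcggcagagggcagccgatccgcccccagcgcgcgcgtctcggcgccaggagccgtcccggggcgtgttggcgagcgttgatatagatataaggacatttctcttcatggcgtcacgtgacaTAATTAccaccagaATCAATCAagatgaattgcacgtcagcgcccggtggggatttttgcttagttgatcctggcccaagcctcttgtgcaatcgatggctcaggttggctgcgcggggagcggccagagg
HOXD13: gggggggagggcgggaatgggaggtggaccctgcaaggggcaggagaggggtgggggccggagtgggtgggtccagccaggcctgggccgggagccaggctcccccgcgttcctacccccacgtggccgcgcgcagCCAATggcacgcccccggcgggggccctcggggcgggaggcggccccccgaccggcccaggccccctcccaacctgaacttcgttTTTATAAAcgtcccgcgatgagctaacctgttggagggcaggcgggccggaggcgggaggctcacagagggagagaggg
HOXD11 held 1 match each to TGATNNAT and TAATTA, which do not overlap. HOXD13 held CCAAT and 2 matches to TATAAA that overlap each other, and HOXA7 and HOXA13 held 1 CCAAT each. Windows were found for 27 of the 50 members, 34 windows in all, some of which overlap. No coding HOXB gene had a window, and the only HOXC members with one, HOXC4 and HOXC5, had the same window. HOXA3 had several windows. The shares of member windows below thus describe mostly HOXA and HOXD. TGATNNAT occurred in 3 of the 34 member windows (8.82%) and in 7.4% of all 35116 windows, TAATTA in 3 (8.82%) and 4.84%, CCAAT in 21 (61.8%) and 34.6%, and TATAAA in 5 (14.7%) and 11.5%. CpG dinucleotides numbered 31 in the HOXA7 window, 44 in HOXA13, 27 in HOXD11 and 24 in HOXD13, against a median of 14 over all windows. These matches describe letters and are not sites.

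HOXA genes were on in the sensitive cells across most of the cluster and low in the resistant cells. In what follows the values of each gene are those of replicates 1, 2 and 3, and differences are log2 differences of resistant against sensitive libraries on the log2(FPKM + 1) scale from the limma fit, with the Benjamini-Hochberg adjusted p. HOXA3, needed for the thymus and parathyroid, was 1.18, 1.31 and 1.68 FPKM in sensitive and 0.368, 0.262 and 0.434 FPKM in resistant libraries (-0.81, SE 0.11, adjusted p = 0.000468). HOXA4, which helps set neck vertebrae, was 7.74, 8.06 and 16.9 FPKM against 0.151, 0.798 and 0.466 FPKM (-2.96, SE 0.31, adjusted p = 0.000164). For both of these genes every resistant library lay below every sensitive one, and HOXA4 was 2.14 times as high in sensitive replicate 3 as in the mean of the other sensitive libraries. HOXA5, known for its role in lung development, was 4.50, 3.85 and 4.62 FPKM against 1.22, 0.927 and 1.53 FPKM (-1.26, SE 0.14, adjusted p = 0.000194). HOXA6 was 2.14, 1.64 and 1.15 FPKM against 0.0517, 0.462 and 0.231 FPKM (-1.08, SE 0.18, adjusted p = 0.00144). HOXA10, which acts in the uterus and in blood cell precursors, was 2.12, 2.04 and 2.68 FPKM against 0.633, 1.25 and 0.818 FPKM (-0.80, SE 0.15, adjusted p = 0.00273). HOXA10 and HOXA5 thus remained detectable at about the level of the filter in resistant libraries.

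HOXA13, the last gene of the cluster and a gene of the distal limb and the genital tract, was 5.74, 6.16 and 3.57 FPKM in sensitive and 0.0153, 0.0253 and 0.00505 FPKM in resistant libraries (-2.57, SE 0.18, adjusted p = 1.96e-05). The steps between its values fit 1141, 1238 and 694 reads in sensitive and 3, 5 and 1 reads in resistant libraries, the smallest whole numbers that do so. HOXA7, in the middle of the cluster, went the other way, with 0.175, 0 and 0.0128 FPKM in sensitive and 2.94, 3.99 and 3.90 FPKM in resistant libraries (2.11, SE 0.13, adjusted p = 1.11e-05). It was the only coding HOXA gene called higher, with or without the filter, and it lies between HOXA6 and HOXA9 in the cluster. Of the 13 members called lower that were above 0 in a resistant library, 7 were highest in resistant replicate 2, 6 in replicate 3 and 0 in replicate 1. The same split over all genes called lower was not counted. Resistant replicate 2 also had the highest hepatocyte marker sum of its group, 43.8 FPKM against 16.6 and 17.3 FPKM in replicates 1 and 3. The part of this in the residual HOX levels was not tested.

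HOXB genes showed the opposite pattern, with most of the cluster on in resistant cells. HOXB2, a hindbrain gene, was 0.115, 0 and 0.0732 FPKM in sensitive and 26.5, 23.5 and 23.4 FPKM in resistant libraries (4.58, SE 0.12, adjusted p = 4.41e-07). It ranked 40 among the members by mean FPKM in sensitive and 1 in resistant libraries, and its values fit 8, 0 and 5 against 1825, 1630 and 1628 reads. HOXB3, a neighbour that also acts in the hindbrain, was 0.120, 0.152 and 0.122 FPKM against 1.23, 1.45 and 1.62 FPKM (1.10, SE 0.09, adjusted p = 3.54e-05). HOXB4, known for expanding blood stem cells, was 4.16, 2.78 and 4.73 FPKM against 2.70, 3.21 and 3.77 FPKM (-0.19, SE 0.19, adjusted p = 0.389). The groups overlapped for HOXB4, the only tested HOXB member that did not pass. HOXB6 was 0.0113, 0 and 0 FPKM against 2.05, 1.96 and 3.39 FPKM (1.76, SE 0.16, adjusted p = 7.22e-05), which fits 1, 0 and 0 against 178, 172 and 297 reads. HOXB7 was already on in sensitive cells at 3.48, 2.38 and 2.84 FPKM and stood at 10.4, 9.09 and 11.3 FPKM in resistant libraries (1.54, SE 0.15, adjusted p = 0.000118). HOXB9, a gene of the thoracic region, was 1.03, 0.887 and 2.25 FPKM against 10.7, 10.9 and 10.9 FPKM (2.35, SE 0.22, adjusted p = 8.21e-05). The resistant libraries lay close together for HOXB9, whereas sensitive replicate 3 was 2.35 times the mean of the other sensitive libraries.

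HOXC genes had the highest summed level of the 4 clusters in each sensitive library, led by HOXC10, and all tested ones except HOXC9 were lower in resistant cells. HOXC6 was 4.50, 4.79 and 6.91 FPKM against 0.528, 0.641 and 0.535 FPKM (-2.01, SE 0.16, adjusted p = 3.73e-05). HOXC8, which acts in the lower thoracic region, was 3.75, 3.88 and 2.96 FPKM against 0.761, 0.872 and 1.75 FPKM (-1.11, SE 0.19, adjusted p = 0.00196). HOXC9 was 5.53, 6.21 and 5.601 FPKM against 6.86, 6.80 and 6.43 FPKM (0.18, SE 0.11, adjusted p = 0.178). All resistant libraries lay above all sensitive ones for HOXC9, but the difference was small and did not pass. HOXC10, a gene of the lumbar region and hindlimb, was 15.4, 14.95 and 26.3 FPKM against 1.99, 1.95 and 2.59 FPKM (-2.60, SE 0.23, adjusted p = 6.95e-05). It was the highest member in sensitive libraries and ranked 15 in resistant ones. HOXC12 was 1.75, 1.73 and 1.85 FPKM in sensitive libraries and was listed at 0 in all 3 resistant libraries (adjusted p = 3.51e-06). HOXC13, which controls hair keratins, was 8.46, 8.18 and 15.3 FPKM against 1.38, 1.30 and 1.54 FPKM (-2.22, SE 0.23, adjusted p = 0.00016). For HOXC10 and HOXC13 sensitive replicate 3 was 1.74 and 1.84 times the mean of the other sensitive libraries, and every resistant library was below all of them.

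In the HOXD cluster HOXD4, HOXD10 and HOXD11 were higher in resistant libraries, and HOXD8 and HOXD9, which lie between them, did not pass. HOXD4, a gene of the neck vertebrae, was 0.863, 0.761 and 1.27 FPKM in sensitive and 3.35, 3.84 and 3.94 FPKM in resistant libraries (1.27, SE 0.13, adjusted p = 0.000148). HOXD8 was 4.28, 5.31 and 1.26 FPKM against 2.50, 1.90 and 1.99 FPKM (-0.44, SE 0.37, adjusted p = 0.326). HOXD9 was 6.51, 6.76 and 4.07 FPKM against 5.08, 5.82 and 4.36 FPKM (-0.14, SE 0.20, adjusted p = 0.564). For HOXD8 and HOXD9 the groups overlapped through sensitive replicate 3, which was 0.263 and 0.613 times the mean of the other sensitive libraries. Without that library both were called lower, HOXD8 by -0.89 (adjusted p = 0.000248) and HOXD9 by -0.33 (adjusted p = 0.0308). HOXD10, which acts with HOXC10 in the lumbar spinal cord and hindlimb, was 0.155, 0.251 and 0.246 FPKM against 3.55, 3.27 and 4.63 FPKM (1.97, SE 0.13, adjusted p = 1.44e-05). HOXD11, needed for the forearm bones and the kidney, was 0.873, 0.892 and 0.590 FPKM against 8.22, 8.18 and 8.39 FPKM (2.38, SE 0.12, adjusted p = 4.2e-06). HOXD10 and HOXD11 share 452 exonic bases on the same strand in the GENCODE 29 annotation, so reads there could be assigned to either. HOXD13, a gene of the digits, was below the filter at 0.666, 0.697 and 0.601 FPKM against 0, 0.0118 and 0 FPKM, and it was lower in the fit with no filter (-0.72, adjusted p = 3.54e-05). High values in resistant libraries thus ended at HOXD11 on the posterior side, and HOXD12 was at most 0.0989 FPKM in any library.

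**Figure D2:**
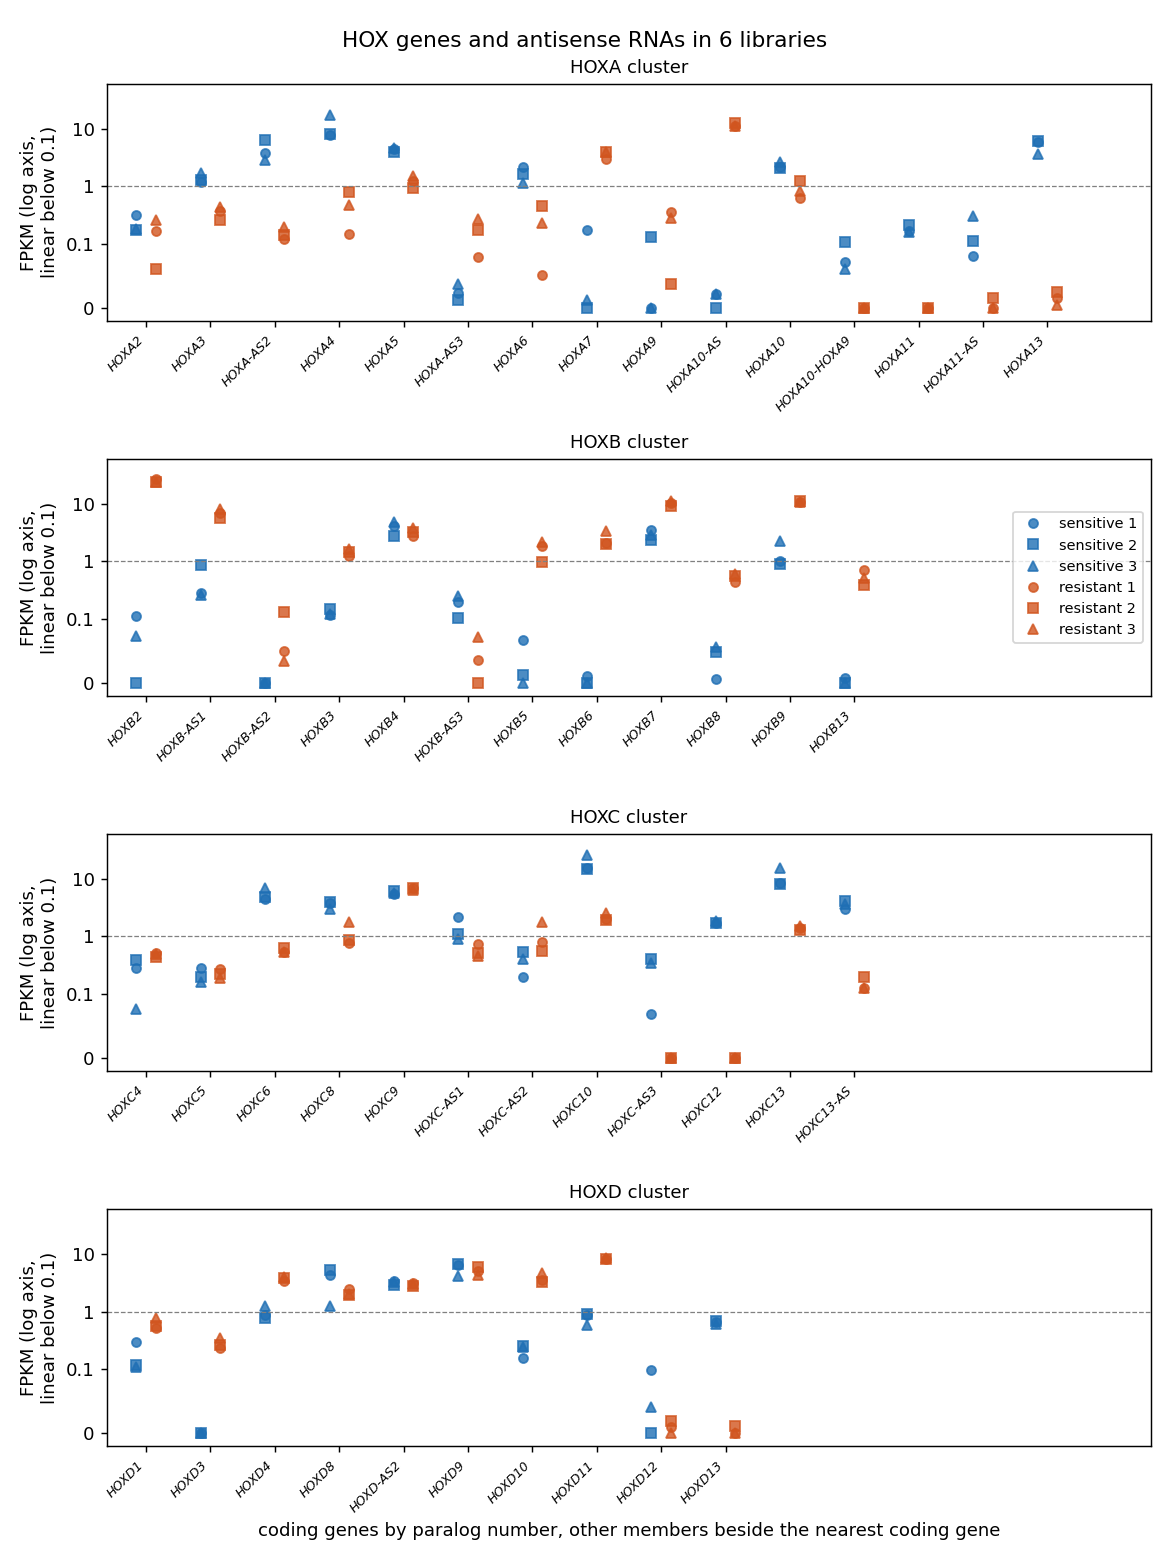
FPKM of HOX members in each of the 6 libraries, by cluster and in paralog order (log axis, linear below 0.1; the dashed line marks 1 FPKM); blue marks are sensitive and orange marks resistant libraries. The coding genes HOXA3 to HOXA6, HOXA13, HOXC6, HOXC10 and HOXC13 lie lower in the resistant libraries, the coding genes HOXB2 to HOXB9 (except HOXB4) lie higher, and HOXA7 and HOXA10-AS stand out among lower HOXA genes.

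Antisense RNAs differed in both directions. Of 12 antisense members 5 were tested, 2 higher, 2 lower and 1 not passing, against 67.7% of all genes tested that were called. The 4 called ones reached the filter through a single group, so they had to differ and the count is a description only. With no filter 3 were higher, 4 lower and 5 did not pass, against 44.6% of all genes called. Of these 7 called RNAs, HOXA10-AS, HOXA-AS3 (0.19, adjusted p = 0.0409) and HOXB-AS3 (-0.19, adjusted p = 0.0296) went against the direction of most members of their cluster. HOXA10-AS, from the opposite strand of HOXA10 and HOXA9, was 0.0217, 0 and 0.0222 FPKM in sensitive and 10.9, 12.3 and 11.1 FPKM in resistant libraries (3.61, SE 0.10, adjusted p = 5.43e-07). It ranked 46 among the members in sensitive and 2 in resistant libraries, and its values fit 1, 0 and 1 against 494, 562 and 509 reads. HOXA10 itself was lower in the same libraries, and HOXA9 was 0 to 0.133 FPKM in sensitive and 0.0369 to 0.359 FPKM in resistant libraries, with overlap. HOXA-AS2, opposite HOXA3 and HOXA4, was 3.78, 6.38 and 2.88 FPKM against 0.122, 0.145 and 0.194 FPKM (-2.16, SE 0.23, adjusted p = 0.000159), the direction of both of those genes. HOXB-AS1, opposite HOXB2 and HOXB3, was 0.285, 0.876 and 0.259 FPKM against 7.02, 5.64 and 8.05 FPKM (2.44, SE 0.20, adjusted p = 4.54e-05), again the direction of its coding partners. HOXC13-AS was 3.01, 4.11 and 3.61 FPKM against 0.127, 0.198 and 0.126 FPKM (-1.99, SE 0.11, adjusted p = 8.37e-06), as HOXC13 was lower. HOXD-AS2, opposite HOXD3, was 3.43, 2.88 and 3.21 FPKM against 3.10, 2.83 and 2.97 FPKM (-0.07, SE 0.11, adjusted p = 0.579), and its groups overlapped.

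Sense and antisense levels rest on exons that partly coincide. In GENCODE 29, which held 49 of the 50 members, 29 members share exonic bases with a gene on the opposite strand and 11 with a gene on the same strand. The sources used here do not give the counting tool, its strand setting or its annotation, so reads from shared stretches cannot be assigned to a strand. HOXA10-AS shares 36.8% of its exonic bases with HOXA10 and 25.5% with HOXA9, HOXA7 shares 62.5% with HOXA-AS3, and HOXB-AS1 shares 24.0% with HOXB3 and 5.58% with HOXB2. HOXA-AS3 was at most 0.268 FPKM in any library, and HOXA10 and HOXA9 were at most 1.25 FPKM in every resistant library, below the 10.9 to 12.3 FPKM of HOXA10-AS. HOXB7, HOXB9, HOXC8, HOXC12, HOXD4, HOXD8 and HOXD9 share no exonic bases with another gene, and neither do HOXA2, HOXA5, HOXB8, HOXB13, HOXD12 and HOXD13.

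The 20 members below the filter were HOXA2, HOXA9, HOXA11, HOXA11-AS, HOXA10-HOXA9, HOXA-AS3, HOXB5, HOXB8, HOXB13, HOXB-AS2, HOXB-AS3, HOXC4, HOXC5, HOXC-AS1, HOXC-AS2, HOXC-AS3, HOXD1, HOXD3, HOXD12 and HOXD13. Of these 17 were under 1 FPKM in every library. HOXB5, HOXB8 and HOXB13, a gene of the prostate and distal colon, had the direction of the rest of their cluster. HOXB5 was 0.0678, 0.0134 and 0 FPKM in sensitive and 1.81, 0.956 and 2.13 FPKM in resistant libraries, 2 of which reached 1 FPKM (1.33, adjusted p = 0.0021 with no filter). HOXB8 was at most 0.0562 FPKM in sensitive and 0.433 to 0.595 FPKM in resistant libraries (0.56, adjusted p = 0.000363 with no filter), and HOXB13 was at most 0.0083 FPKM against 0.393 to 0.714 FPKM (0.61, adjusted p = 0.00145 with no filter). HOXD3 was listed at 0 in all sensitive libraries and was 0.237, 0.262 and 0.352 FPKM in resistant ones, and HOXD1 was 0.109 to 0.294 against 0.515 to 0.780 FPKM. HOXA11, HOXA10-HOXA9 and HOXC-AS3 were listed at 0 in all resistant libraries and were 0.164 to 0.215, 0.0611 to 0.106 and 0.0685 to 0.407 FPKM in sensitive ones. HOXC-AS1 was 2.16, 1.09 and 0.895 FPKM against 0.746, 0.510 and 0.463 FPKM and did not pass with no filter (adjusted p = 0.0807), although its groups did not overlap.

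The set of genes at 1 FPKM or more in all libraries of a group changed in each cluster. It held 20 members in sensitive and 19 in resistant libraries, of which 9 were in both, among them HOXB4, HOXB7, HOXC9, HOXC10, HOXC13, HOXD8, HOXD9 and HOXD-AS2. In HOXA, HOXA3, HOXA4, HOXA5, HOXA6, HOXA10 and HOXA13 were in the sensitive but not the resistant set, and HOXA7 was in the resistant but not the sensitive set. In HOXB the coding genes of the set were HOXB4 and HOXB7 in sensitive libraries, joined by HOXB2, HOXB3, HOXB6 and HOXB9 in resistant libraries. In HOXC, HOXC6, HOXC8 and HOXC12 were in the sensitive but not the resistant set, and in HOXD, HOXD4, HOXD10 and HOXD11 were in the resistant but not the sensitive set. As a description over the 50 members, which share libraries and clusters, Spearman's rho of their FPKM was 0.943 to 0.95 between sensitive libraries, 0.968 to 0.985 between resistant libraries and 0.131 to 0.283 between libraries of different groups.

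Summed over the 37 coding genes, HOX levels were 95.8, 95.3 and 122 FPKM in sensitive and 99.3, 97.6 and 105 FPKM in resistant libraries, so the groups overlapped. What differed was how this sum was spread over the clusters. The coding HOXA sum was 37.2 ± 6.28 FPKM (SD, n = 3) in sensitive and 8.52 ± 1.31 FPKM in resistant libraries, and the coding HOXC sum was 46.5 ± 11.0 and 12.7 ± 0.729 FPKM. The coding HOXB sum was 8.44 ± 1.97 FPKM in sensitive and 55.4 ± 2.96 FPKM in resistant libraries, 6.56 times as high, and the coding HOXD sum was 12.2 ± 3.55 and 23.9 ± 0.493 FPKM. None of these 4 sums overlapped between the groups, and neither did 56.2% of all genes above 0 in a library. As a share of all coding HOX FPKM, HOXC held 44.2% and HOXA 35.6% in sensitive libraries, against 12.6% and 8.48% in resistant ones, where HOXB held 55.1% and HOXD 23.8%. In the sensitive libraries the shares of HOXB and HOXD were 8.08% and 12.2%. The sum of the antisense RNAs was 13.999 ± 2.24 FPKM in sensitive and 23.5 ± 1.36 FPKM in resistant libraries, without overlap, and HOXA10-AS and HOXB-AS1 made up most of the latter. No test was run on these sums because the members were chosen with results known.

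**Figure D3:**
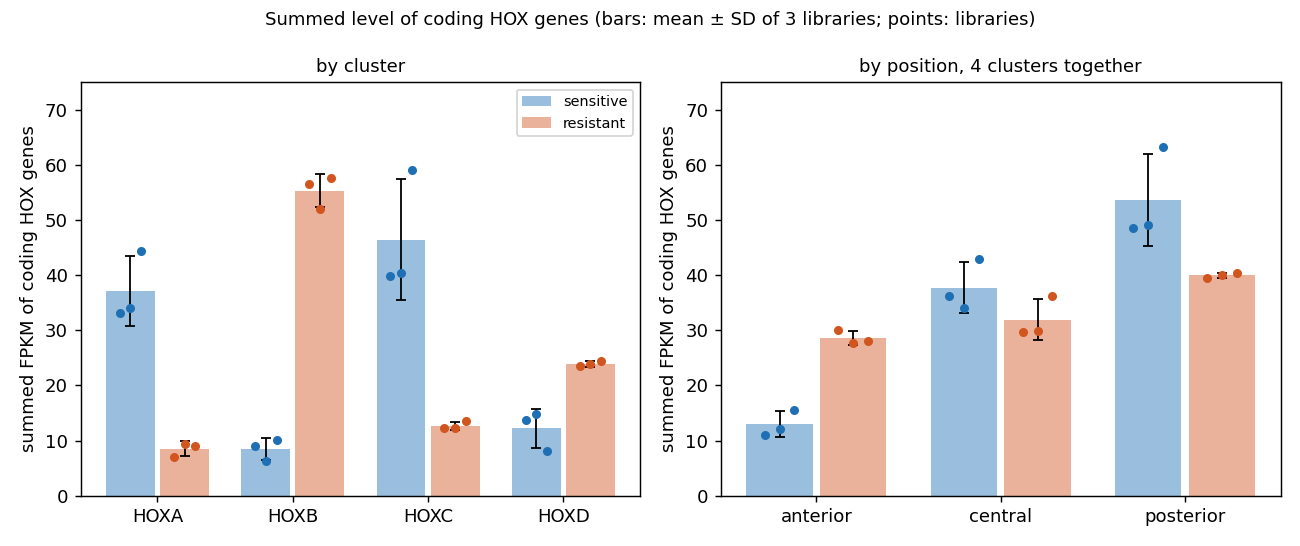
Summed FPKM of coding HOX genes by cluster (left) and by position over the 4 clusters (right); bars are means of 3 libraries with SD, points are libraries, blue sensitive and orange resistant. The HOXA and HOXC bars are lower and the HOXB and HOXD bars higher in resistant libraries, while the central genes overlap between the groups.

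By position, the anterior sum was 12.9 ± 2.36 FPKM (SD, n = 3) in sensitive and 28.6 ± 1.29 FPKM in resistant libraries, and the posterior sum was 53.6 ± 8.38 and 40.0 ± 0.463 FPKM, both without overlap. The central sum was 37.8 ± 4.63 and 31.9 ± 3.71 FPKM, with overlap. In resistant libraries the anterior sum came mostly from HOXB2, with a HOXB anterior sum of 25.9 FPKM. Among paralogs, group 2 (HOXA2 and HOXB2) was 0.288 FPKM on average in sensitive and 24.6 FPKM in resistant libraries, group 7 (HOXA7 and HOXB7) 2.96 and 13.9 FPKM, group 9 12.99 and 22.8 FPKM, and group 11 (HOXA11 and HOXD11) 0.968 and 8.26 FPKM. Group 4 was 16.0 FPKM in sensitive and 7.90 FPKM in resistant libraries, group 10 21.4 and 6.90 FPKM, and group 13 16.5 and 1.97 FPKM. None of these 7 group sums overlapped between sensitive and resistant libraries. The sums of the other paralog groups did not overlap either, except group 8, the only one that did. Lack of overlap was common, with 56.2% of all genes above 0 in a library. Group 10 shows an exchange of members: HOXC10 led it in sensitive libraries at 14.95 FPKM or more, and in resistant libraries HOXD10, at 3.27 FPKM or more, exceeded HOXC10, at 2.59 FPKM or less. In group 13, HOXC13 remained the highest member in resistant libraries at 1.30 to 1.54 FPKM, while HOXA13 and HOXD13 were under 0.03 FPKM.

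Cofactors with which HOX proteins bind DNA were described next. Of 8 cofactor genes described here 6 were tested, 5 higher and 1 lower. Calls were common over all genes tested, with 67.7% called, 35.2% higher and 32.5% lower, so this count is a description only. PBX2 was 28.95, 30.8 and 21.5 FPKM in sensitive and 9.03, 9.69 and 10.2 FPKM in resistant libraries (-1.38, SE 0.16, adjusted p = 0.000222). Every resistant library was below every sensitive one for PBX2. PBX4 was 0.559, 0.453 and 0.820 FPKM against 3.66, 2.47 and 2.36 FPKM (1.24, SE 0.16, adjusted p = 0.000446), and PKNOX1 was 2.05, 1.90 and 1.34 FPKM against 5.40, 5.18 and 4.53 FPKM (1.13, SE 0.14, adjusted p = 0.000383). PBX3 (0.71, adjusted p = 0.0486), MEIS2 (0.68, adjusted p = 0.00562) and MEIS3 (0.57, adjusted p = 0.00436) were the other cofactors called higher. The PBX3 call rested on few libraries: without sensitive replicate 3 the difference was 0.40 (adjusted p = 0.00833), and without any 1 of the resistant libraries it did not pass (adjusted p = 0.0895 to 0.141). MEIS3, at 13.7, 13.5 and 15.9 FPKM, had the highest level of these cofactors in each resistant library. MEIS1 was 0.408 to 0.685 FPKM over all libraries and was not tested, and PKNOX2 was listed at 0 in sensitive libraries.

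**Figure D4:**
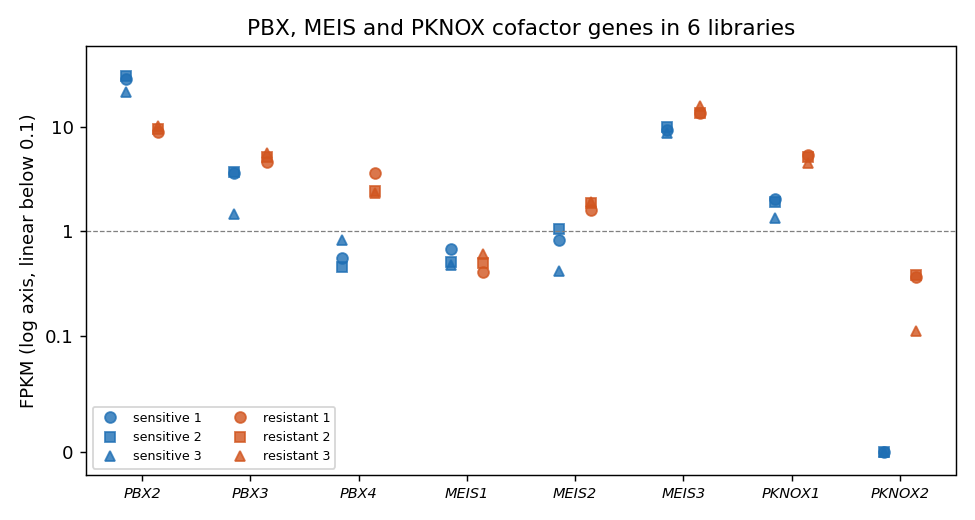
FPKM of 8 PBX, MEIS and PKNOX cofactor genes in each library (log axis, linear below 0.1; the dashed line marks 1 FPKM); blue marks are sensitive and orange marks resistant libraries. PBX2 lies lower in all resistant libraries, and PBX4 and PKNOX1 lie higher in all resistant libraries.

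Of the other RNAs of the HOX loci, 5 of 15 listed were in the files and 2 were tested. HOTAIRM1, from the anterior end of the HOXA cluster, was 16.8, 14.4 and 39.4 FPKM in sensitive and 3.82, 5.11 and 4.71 FPKM in resistant libraries (-2.02, SE 0.36, adjusted p = 0.0021), the direction of most HOXA members. HAGLR, in the anterior part of the HOXD cluster, was 0.438, 0.674 and 0.166 FPKM against 2.44, 2.51 and 2.57 FPKM (1.31, SE 0.14, adjusted p = 0.000177), the direction of HOXD4. HOTTIP, beside HOXA13, was 0.378, 0.417 and 0.465 FPKM in sensitive libraries and listed at 0 in resistant ones. Genes that flank the clusters were read beside the 67.7% of all genes tested that were called. Of 16 tested flanking genes 3 were higher, 2 were lower and 11 did not pass, with a median log2 difference of -0.08. Without sensitive replicate 3 the counts were 4 higher, 7 lower and 5 not passing. On the HOXA side SKAP2 was lower (-1.11, adjusted p = 0.00125), and SNX10, HIBADH and TAX1BP1 did not pass. SNX10 (-0.47, adjusted p = 0.00299) and HIBADH (-0.60, adjusted p = 0.000144) passed as lower without sensitive replicate 3, and TAX1BP1 did not. On the HOXB side UBE2Z (1.39, adjusted p = 0.000495) and CBX1 (1.06, adjusted p = 0.049) were higher, while NFE2L1 (0.47, adjusted p = 0.148), SNX11 (-0.14, adjusted p = 0.675) and CALCOCO2 (0.13, adjusted p = 0.219) did not pass. Without sensitive replicate 3 CBX1 was 0.56 (adjusted p = 0.000323) and NFE2L1 passed (0.79, adjusted p = 1.1e-05), and CBX1 did not pass without any 1 of the resistant libraries (adjusted p = 0.1 to 0.134). On the HOXC side SMUG1 was lower (-0.68, adjusted p = 0.00124) and CALCOCO1 was higher (0.83, adjusted p = 0.000918). CBX5 and HNRNPA1 did not pass, but both passed as lower without sensitive replicate 3 (-0.38, adjusted p = 0.0348, and -0.83, adjusted p = 4.19e-05). The neighbours tested on the HOXD side, LNPK, MTX2 and ATF2, did not pass, but LNPK passed as lower without sensitive replicate 3 (-0.90, adjusted p = 0.000409) and ATF2 as higher without sensitive replicate 1 (0.77, adjusted p = 0.0305).

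Regulators known to act on HOX chromatin were described from lists of genes. In the whole fit 67.7% of genes tested were called, 35.2% higher and 32.5% lower, so counts from these lists are a description only. Without sensitive replicate 3, 9442 of the 11694 genes tested were called. Of 21 Polycomb genes tested 7 were higher and 7 lower (median -0.11), and 8 and 10 without sensitive replicate 3. The lowest count of lower genes with 1 library left out was 4, without resistant replicate 1 or 2. CBX2, a chromobox subunit of Polycomb repressive complex 1, was 16.6, 17.9 and 17.0 FPKM in sensitive and 1.14, 1.16 and 1.81 FPKM in resistant libraries (-2.95, SE 0.15, adjusted p = 4.31e-06), and CBX8, another such subunit, was 7.54, 8.999 and 8.90 against 1.97, 2.06 and 3.18 FPKM (-1.49, adjusted p = 0.000232). MTF2, an accessory subunit of complex 2, was lower (-1.78, adjusted p = 0.00544) and PHC2 was higher (1.58, adjusted p = 0.000246). EZH2, the methyltransferase, was 9.57, 8.35 and 5.91 against 17.1, 17.9 and 14.3 FPKM (0.98, adjusted p = 0.00292). This gene falls outside the rule for named genes and is given for its role. Of 12 Trithorax and activator genes tested 4 were higher and 3 lower (median -0.03), against 4 and 6 without sensitive replicate 3, and 2 and 2 without sensitive replicate 2 or any 1 of the resistant libraries. DOT1L, the H3K79 methyltransferase, was 10.4, 10.7 and 12.6 against 1.94, 2.00 and 1.87 FPKM (-2.05, adjusted p = 9.79e-06), and ASH2L was lower (-1.14, adjusted p = 0.000105). KMT2A, the MLL1 methyltransferase that keeps HOX genes on, was 7.58, 6.19 and 1.76 against 9.44, 12.1 and 13.1 FPKM (1.17, adjusted p = 0.0416), with its lowest value in sensitive replicate 3. Without that library it was 0.66 (adjusted p = 0.00287), and it did not pass without sensitive replicate 2 or any 1 of the resistant libraries (adjusted p = 0.0504 to 0.126). PSIP1, a chromatin tether of MLL1 complexes, was higher (1.65, adjusted p = 0.000483).

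Retinoid genes changed in both directions, with 6 of 11 tested higher and 5 lower (median 0.43), and 3 higher and 4 lower without resistant replicate 2 or 3. These counts are a description only, since 67.7% of all genes tested were called, 35.2% higher and 32.5% lower. Among the enzymes that make retinoic acid, ALDH1A1 was 296, 282 and 267 FPKM in sensitive and 0.890, 3.46 and 1.34 FPKM in resistant libraries (-6.71, SE 0.30, adjusted p = 2.88e-06), and ALDH1A3 was 0.204, 0.201 and 0.0892 against 18.8, 21.9 and 24.5 FPKM (4.28, SE 0.14, adjusted p = 7.89e-07). CRABP2, which carries retinoic acid to its receptors, was higher (2.36, adjusted p = 3.72e-05), and RARB, a receptor and a known retinoic acid target, was lower (-1.94, adjusted p = 8.05e-05) and close to 0 in resistant libraries. CDX2, a homeodomain activator of HOX genes in the gut, was 1.10, 1.12 and 1.12 FPKM in sensitive libraries and listed at 0 in resistant ones (adjusted p = 9.22e-06). CDX2, RARB and ALDH1A3 reached the filter through a single group, so they had to differ and their p-values are descriptions only.

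Markers of other cell types were read beside the HOX values. Of 8 fibroblast markers 7 were in the files and 0 were tested, with sums of 0.938 to 1.85 FPKM in sensitive and 0.0553 to 0.241 FPKM in resistant libraries. The 5 endothelial markers summed to at most 0.348 FPKM with KDR listed at 0, and among 4 leukocyte markers PTPRC was listed at 0 while CD68 and LYZ were lower in resistant libraries. Of 6 kidney markers 2 were tested and higher in resistant libraries, PAX2 at 0.0840, 0.0929 and 0.0152 against 5.67, 6.15 and 6.75 FPKM and LHX1 at 0.442, 0.430 and 0.113 against 3.09, 2.51 and 3.08 FPKM. PAX2 and LHX1 reached the filter through the resistant libraries only, so they had to differ. The list summed to 0.390 to 0.681 FPKM in sensitive and 9.03 to 10.1 FPKM in resistant libraries, with UMOD listed at 0 in all 6. AQP1 went the other way, at 0.0634 to 0.262 FPKM in sensitive and at most 0.00927 FPKM in resistant libraries, CDH16 was at most 0.0353 FPKM in any library, and PAX8 was listed at 0 in sensitive and was 0.275 to 0.624 FPKM in resistant libraries. Intestinal markers CDX2 and VIL1 were lower, and the list summed to at most 0.237 FPKM in resistant libraries. Of 5 squamous markers SFN was tested and higher, and the list summed to 2.52 to 3.95 against 599 to 714 FPKM, with KRT14 listed at 0 in resistant libraries and TP63 and KRT5 under 0.1 FPKM in all 6. The part of these cell type markers in the HOX differences was not tested.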

How the data were processed

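RNA-seq of 6 libraries was analysed, 3 per group. The authors deposited 1 value per gene symbol and library, read here as FPKM. The unit is not named in the files and was taken from the values, whose steps for 44 of the 50 members fit whole reads within 0.02 of a read; RPKM would look the same. The submitters' processing notes name cutadapt and HISAT2, while versions, genome build, annotation, counting tool and strand setting were not given in the sources used. Members, gene lists and tests were chosen with earlier results of these data known. Every tested member is named except for results not reported here, and of each context list the called genes with the largest log2 differences, up to 4, with exceptions stated or added beside them for their role. Flanking genes and cofactors beyond those 4 were named after their values were seen.

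Genes with at least 1 FPKM in at least 3 of the 6 libraries entered a limma 3.58.1 fit (R 4.3.3) of log2(FPKM + 1), with a mean-variance trend and group as the only term. Tests were two-sided with Benjamini-Hochberg adjustment over all 11694 genes and 4 residual and 2.75 prior degrees of freedom. A difference on this scale understates the change of genes near or below 1 FPKM. Tested genes under 1 FPKM in every library of a group reached the filter through the other group, so they had to differ. Their adjusted p-values are descriptions only. Outside the HOX members these genes include PBX4, HAGLR, RARB, ALDH1A3, CDX2, PAX2, LHX1 and VIL1. FPKM keeps no total count, so no counting interval is given. Read numbers are the smallest whole numbers that fit the steps of a gene's values. Relative steps differed between libraries by at most 3.5%. Sequences were read from RefSeq promoter windows on GRCh38.p14 and exon sharing from GENCODE 29. Alternatives were other normalizations, filters, pseudocount and trend settings, a replicate block and leaving out each library. Figures were drawn with matplotlib 3.10.9.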

Additional observations from a re-analysis of the deposited data

How the results depend on the processing

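The 25 HOX members that passed the test kept their direction and passed in all of the 13 alternatives in which they had a value, 308 of 308 values. Of these members 16 reached the filter through a single group and so had to differ. The fits with a library left out kept the genes of the main filter. The count of 308 is thus a description only. Of the 5 members that did not pass, HOXD8 (-0.89) and HOXD9 (-0.33) passed as lower without sensitive replicate 3; the lowest sensitive value of each gene is in that library. The filter set most counts, since it sets how many members are tested. With no filter 17 members were higher, 5 of them in HOXD. With a mean of at least 5 FPKM 10 members remained among 7396 genes, 4 higher and 4 lower: 2 HOXA and 2 HOXC members lower, 3 HOXB members higher and 0 HOXD members higher, and 4973 of all genes were called. Leaving out single libraries gave 6675 called genes (without resistant replicate 2) to 9442 (without sensitive replicate 3), around 7920. Same-numbered libraries of the groups did not deviate together (r = -0.422, 0.072 and -0.228), so the numbers were not read as pairs. With the replicate number as a block 7193 genes were called and no call of a HOX member changed. Other normalizations moved the median difference of all genes by less than 0.1 on the log2 scale. Small numbers of reads limit members under 1 FPKM, and 3 libraries a group with 1 apart limit the rest.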
